A study of Rattus norvegicus with 9 samples.

Results

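The genes described here are 9 genes that mark medium spiny neurons, the projection neurons of the striatum: Penk, Tac1, Pdyn, Ppp1r1b, Drd1, Drd2, Adora2a, Rgs9 and Pde10a. They were measured in RNA from the thalamus, a neighbouring region of the forebrain. All probe sets that the platform annotation pairs with 1 of these symbols alone were taken, which gave 14 probe sets for all 9 genes, out of 31042 rat probe sets and 14217 named genes. The genes were chosen by symbol, but with the chow and powder values of these arrays already known, Tac1 having stood out among the higher genes under chow. The differences between the diets in these 9 genes are therefore given as a description, without p-values, and nothing is drawn from their counts.

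The chow group held 4 arrays from rats fed a solid diet for 8 days, and the powder group held 5 arrays from rats that ate a powdered one over the same 8 days, in a study of chewing after weaning. All were male Wistar rats, 3 weeks old at the start, and all had first received powder for 2 days. The age label of each sample is 5 weeks. Each array carried biotin-labelled cRNA from 100 ng of total thalamic RNA. The labels mention 10 rats and do not tie each array to an animal or state whether tissue was pooled, so the spread between arrays may be partly technical.

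Medium spiny neurons receive dopamine from the midbrain and send inhibitory, GABA-releasing axons out of the striatum. Those of the direct pathway carry the D1 dopamine receptor and make substance P and dynorphin, whereas those of the indirect pathway carry the D2 dopamine receptor and an adenosine receptor (Adora2a) and make enkephalin. In both kinds, dopamine acts through cyclic AMP, and the phosphoprotein DARPP-32, the phosphodiesterase PDE10A and the G protein regulator RGS9 shape that signal. The peptide genes are not confined to the striatum: prodynorphin and proenkephalin are also made in hypothalamic neurons, and Tac1 in the habenula and other regions.

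Cyclic AMP can drive transcription through the cAMP response element. The promoters of Tac1 and Pde10a are shown with the element's core of 5 bases, TGACG or its reverse complement CGTCA, in capitals. These genes were picked because each had a probe set that varied by at least 0.01 log2 units and on which the diets did not overlap. The other Pde10a probe set overlapped. Each window runs from 250 bases before to 50 bases after the gene's start in RefSeq, assembly GRCr8, and is written 5′ to 3′ along the gene. Tac1 lies at chr4:36645333-36645632 on the plus strand, and this Pde10a start at chr1:54765619-54765918 on the minus strand.
Tac1: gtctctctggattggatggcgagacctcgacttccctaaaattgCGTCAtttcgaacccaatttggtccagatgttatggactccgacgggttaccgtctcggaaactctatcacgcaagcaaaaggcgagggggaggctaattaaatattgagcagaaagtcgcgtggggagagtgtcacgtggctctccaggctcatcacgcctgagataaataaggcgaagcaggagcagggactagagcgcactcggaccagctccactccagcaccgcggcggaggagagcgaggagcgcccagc
Pde10a: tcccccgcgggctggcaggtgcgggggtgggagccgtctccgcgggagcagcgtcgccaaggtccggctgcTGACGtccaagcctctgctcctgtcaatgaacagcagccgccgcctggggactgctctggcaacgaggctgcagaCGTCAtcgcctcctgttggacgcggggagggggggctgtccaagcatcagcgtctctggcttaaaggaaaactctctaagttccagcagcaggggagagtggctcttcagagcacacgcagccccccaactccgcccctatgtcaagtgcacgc
The core began 206 bases before the Tac1 start, and 179 and 104 bases before the Pde10a start. RefSeq windows were matched for 6 of the genes (Tac1, Pdyn, Drd1, Drd2, Rgs9 and Pde10a), 7 windows in all, and 2 windows held the core on either strand, the ones shown, while the other Pde10a start did not, against 7097 of all 33469 promoters (21.2%). The whole palindromic element, which contains the core on both strands, was in 0 of the 7 windows and in 612 of all promoters (1.83%). A match is a stretch of letters and not evidence of binding. The genes were picked by their diet values, and the Pde10a start without the core is not shown. The matches are therefore no evidence about the diets.

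One array, chow 1, stood apart from the other 8 in these genes and beyond them. Among the 2414 named genes whose 9 values spanned at least 0.01 log2 units, chow 1 was the highest array by more than 0.3 for 99 genes and the lowest by more than 0.3 for 117, whereas any other array was highest by that margin for at most 23 (powder 1) and lowest for at most 6 (powder 5). Most probe sets on these arrays, 26193 of 31042 (84.4%), had 9 nearly identical values that spanned less than 0.01, and are called compressed here. Of the 14 probe sets of the striatal genes, 12 spanned at least 0.01, covering all 9 genes, and 2 were compressed. The lowest value on any array was 5.37 and no detection calls were used, so a low value cannot be read as presence or absence. In bulk tissue, more cells of a type and more RNA per cell cannot be told apart.

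All 14 probe sets of the striatal genes had their highest value on chow 1, against 21.6% of all rat probe sets, and the excess was largest for Penk and for the brighter Pdyn probe set. Chow 1 was highest for 12 of 12 that spanned at least 0.01, against 20.5% of all such probe sets. The genes were chosen with these values known, and some probe sets share a gene, so both counts are descriptions. On the 12 probe sets that spanned at least 0.01, chow 1 lay 0.38 to 1.85 log2 units above the mean of the other 3 chow arrays, with a median of 0.81, where the median over all 4849 such probe sets was -0.013. The other 8 arrays together spanned 0.18 to 0.81 on these 12 probe sets, with a median of 0.28. On the values as deposited, 12 of these 12 differences between the diets were positive with all arrays, and 9 were positive and 3 negative without chow 1. Their median was 0.31 with all 9 arrays and 0.087 without chow 1, where all rat probe sets spanning at least 0.01 had medians of -0.11 and -0.095.

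**Figure D1:**
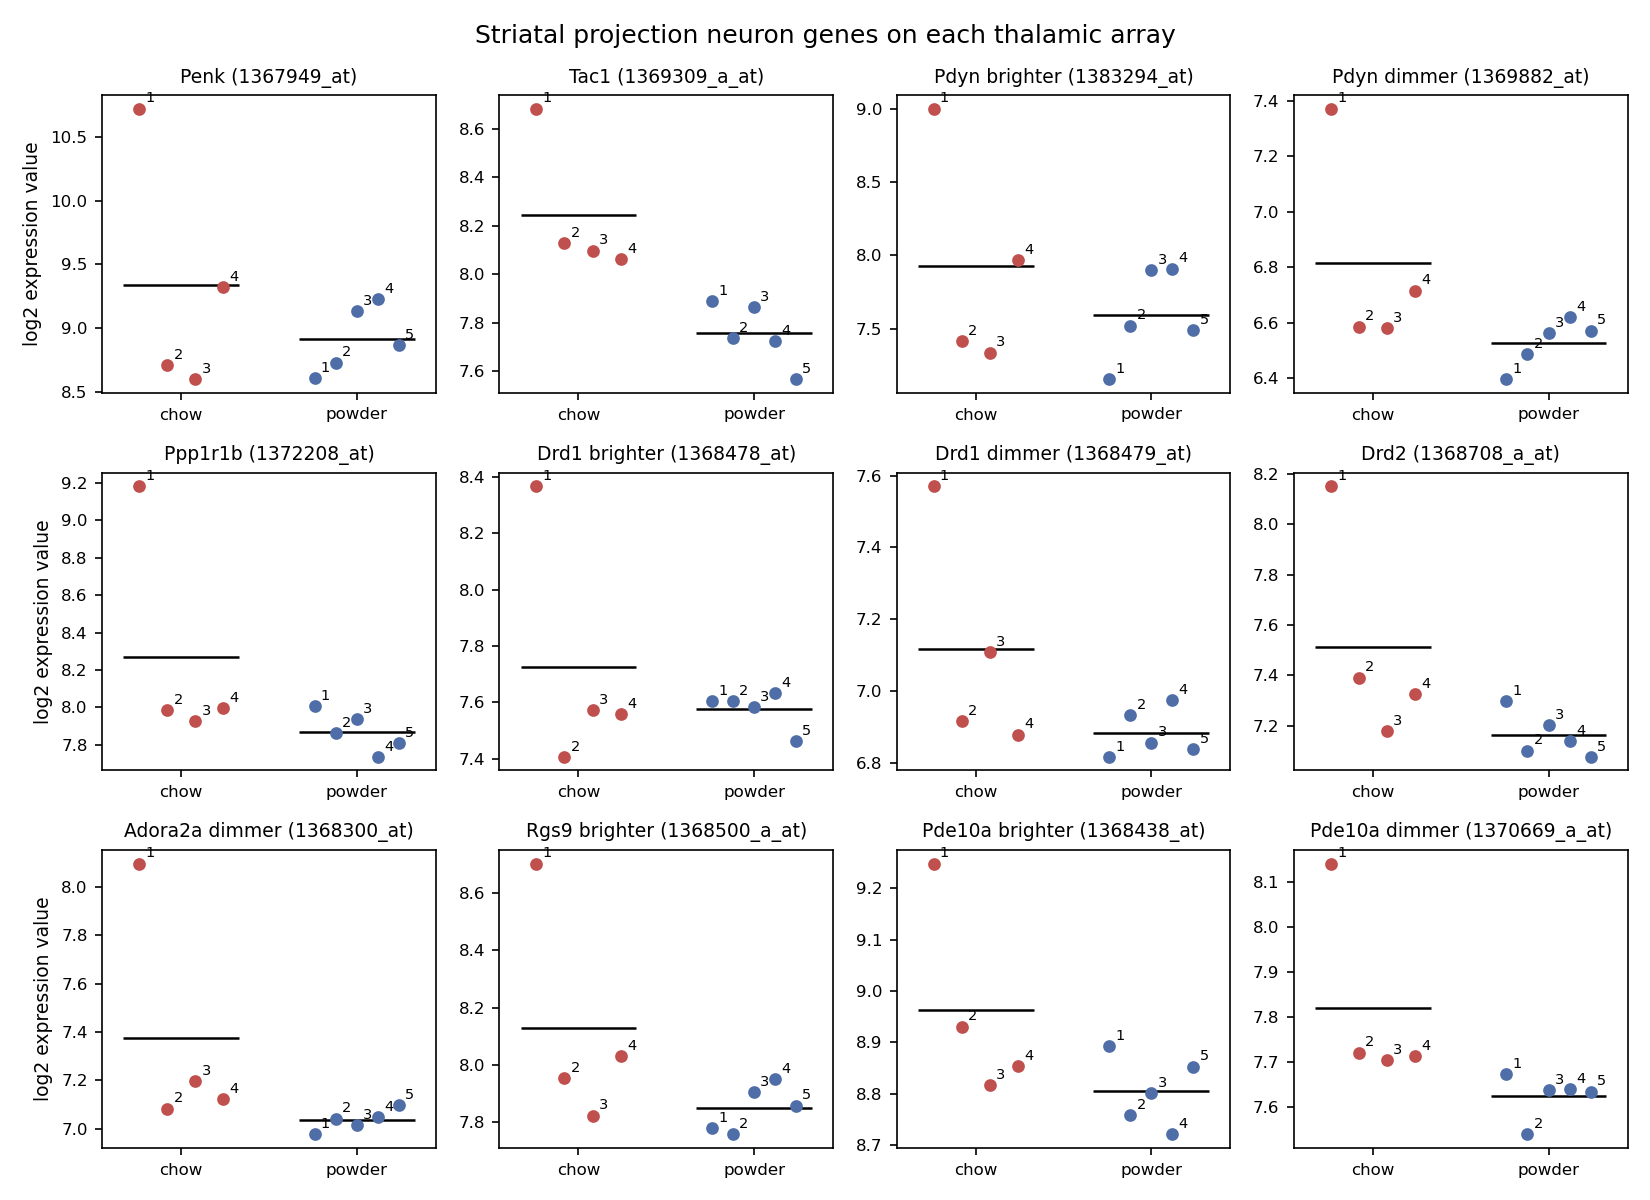
Log2 expression value (y axis, its own range in each panel) of the 12 probe sets that spanned at least 0.01, on the 4 chow arrays (red, left) and the 5 powder arrays (blue, right). Each point is 1 array with its number and each line is a group mean; chow 1 is the highest point in every panel, and Tac1 and the dimmer Pde10a probe set are the panels in which no chow point lies as low as a powder point.

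Among the genes of the direct pathway, Tac1, the precursor of substance P and neurokinin A, separated the diets on every array. It was at 8.68, 8.13, 8.10 and 8.06 on chow arrays 1 to 4, against 7.89, 7.74, 7.86, 7.73 and 7.57 on powder arrays 1 to 5. The lowest chow array lay above the highest powder array, and chow 2, 3 and 4 were close to one another. Mean Tac1 was 8.24 ± 0.29 (SD, n = 4) in the chow group, against 7.76 ± 0.13 (SD, n = 5) in the powder group, a log2 difference of 0.49 ± 0.14 (SE), or 1.40-fold. Without chow 1 the chow mean was 8.10 ± 0.033 (SD, n = 3) and the difference 0.34 ± 0.075, or 1.27-fold, still without overlap. Tac1 had the smallest excess on chow 1 after the Pde10a probe sets, 0.59 over the other chow arrays.

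Pdyn, the precursor of the dynorphins, did not separate the diets. Its brighter probe set was at 9.001, 7.42, 7.34 and 7.97 on the chow arrays, against 7.15, 7.52, 7.90, 7.91 and 7.49 on the powder arrays. Chow 1 stood alone, and chow 4, powder 3 and powder 4 lay above the remaining 5 arrays. Its difference was 0.34 ± 0.36 with all arrays and -0.021 ± 0.23 without chow 1. The dimmer probe set was at 7.37, 6.59, 6.58 and 6.715 under chow and at 6.40, 6.49, 6.56, 6.62 and 6.57 under powder, with differences of 0.29 ± 0.17 and, without chow 1, 0.10 ± 0.059.

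Drd1, the gene of the D1 receptor, overlapped between the diets on both of its probe sets. The brighter one was at 8.37, 7.41, 7.57 and 7.56 under chow, against 7.61, 7.60, 7.58, 7.63 and 7.46 under powder. Chow 1 was the highest of the 9 arrays and chow 2 the lowest. Its difference was 0.15 ± 0.19, and -0.066 ± 0.054 without chow 1. The dimmer probe set was at 7.57, 6.92, 7.11 and 6.88 under chow and at 6.82, 6.93, 6.86, 6.97 and 6.84 under powder, with a difference of 0.23 ± 0.14, and 0.084 ± 0.063 without chow 1. The sign of the Drd1 difference without chow 1 thus differed between its probe sets.

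Among the genes of the indirect pathway, Penk, the precursor of the enkephalins, had the largest excess on chow 1. It was at 10.72, 8.71, 8.60 and 9.32 on the chow arrays, against 8.60, 8.73, 9.13, 9.23 and 8.87 on the powder arrays. Chow 1 was 3.60-fold above the mean of the other chow arrays, and chow 4, powder 4 and powder 3 came next. The group means were 9.34 ± 0.98 (SD, n = 4) with chow, against 8.91 ± 0.26 (SD, n = 5) with powder, a difference of 0.42 ± 0.44. Without chow 1 the difference was -0.038 ± 0.22, with chow 4 above the powder range, chow 3 just below it and chow 2 inside it.

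Drd2, the gene of the D2 receptor, was at 8.15, 7.39, 7.18 and 7.32 under chow, against 7.30, 7.10, 7.20, 7.14 and 7.08 under powder. The groups overlapped through chow 3, which lay below powder 1 and powder 3. The difference was 0.35 ± 0.19, and 0.13 ± 0.068 without chow 1. Adora2a, an adenosine receptor gene, was at 8.10, 7.08, 7.20 and 7.12 on its uncompressed probe set under chow, against 6.98, 7.04, 7.01, 7.05 and 7.10 under powder. Only chow 2 lay within the powder range there, just below powder 5. The difference was 0.34 ± 0.21, and 0.099 ± 0.034 without chow 1. The other Adora2a probe set was compressed, with all values between 7.3414 and 7.3423.

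Of the signalling genes shared by both pathways, Ppp1r1b, which encodes DARPP-32, an inhibitor of protein phosphatase 1, was at 9.18, 7.98, 7.93 and 7.99 under chow, against 8.01, 7.86, 7.94, 7.74 and 7.81 under powder. Chow 1 was 2.32-fold above the other chow arrays, while chow 2, 3 and 4 lay inside the upper part of the powder range. The difference was 0.40 ± 0.26, and 0.098 ± 0.062 without chow 1. Rgs9, which speeds the shut-off of G proteins downstream of dopamine and opioid receptors, was at 8.70, 7.95, 7.82 and 8.03 under chow, against 7.78, 7.76, 7.91, 7.95 and 7.86 under powder on its uncompressed probe set. The difference was 0.28 ± 0.17, and 0.087 ± 0.064 without chow 1, with overlap in both cases. Its compressed probe set had no overlap between the diets, although all 9 values lay between 6.6257 and 6.6265, a difference of 0.00037.

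Pde10a, the phosphodiesterase that breaks down cyclic nucleotides in medium spiny neurons, had the smallest excess on chow 1. Its dimmer probe set was at 8.14, 7.72, 7.70 and 7.71 under chow, against 7.67, 7.54, 7.64, 7.64 and 7.63 under powder. Every chow array lay above every powder array, by a margin of a few hundredths between chow 3 and powder 1. The difference was 0.20 ± 0.095, and 0.088 ± 0.029 without chow 1, still without overlap. The brighter probe set was at 9.25, 8.93, 8.82 and 8.85 under chow and at 8.89, 8.76, 8.80, 8.72 and 8.85 under powder, and it overlapped. Its difference was 0.16 ± 0.090, and 0.062 ± 0.046 without chow 1.

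**Figure D2:**
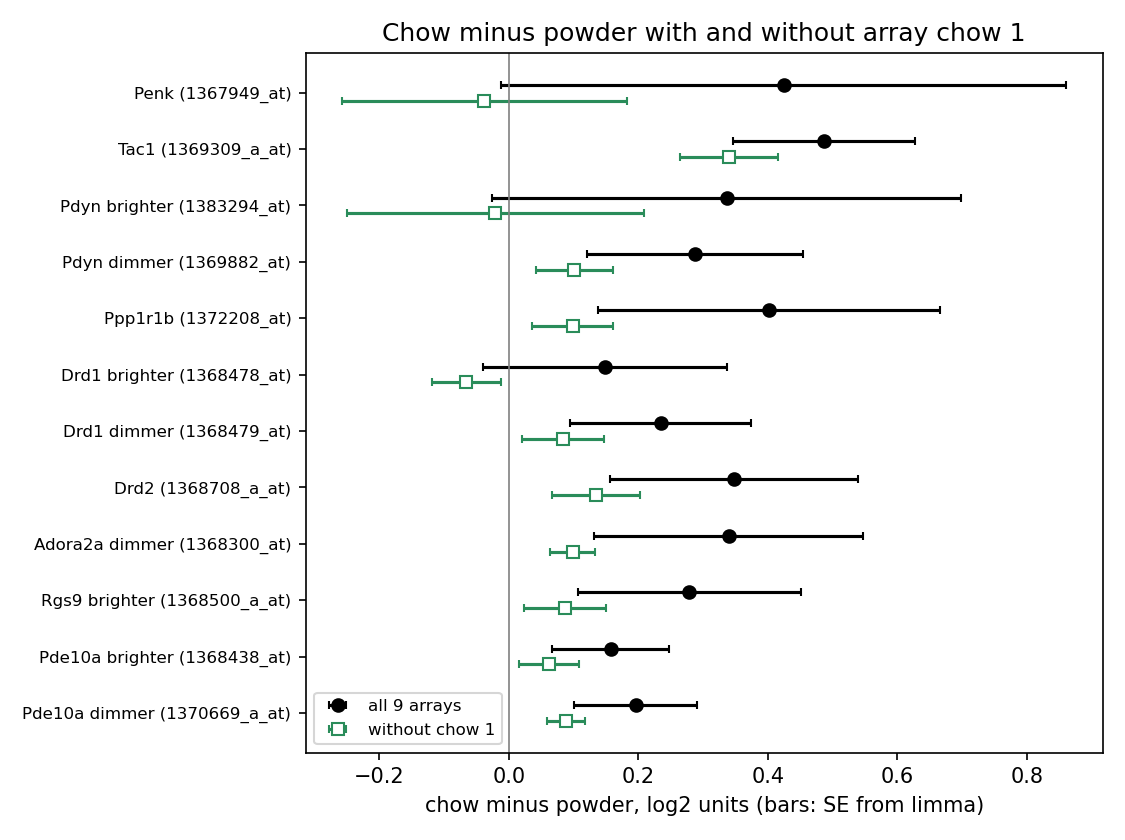
Chow minus powder in log2 units (x axis) for the 12 probe sets that spanned at least 0.01, from the limma fit with all 9 arrays (black circles) and without chow 1 (open green squares), with bars for 1 SE. Every value moved toward 0 or past it without chow 1; Tac1 kept the largest difference, 0.34, and Penk, the brighter Pdyn and the brighter Drd1 probe set fell below 0.

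Counted in the limma fit over all rat probe sets (Benjamini-Hochberg adjusted p under 0.05), 2 of the 14 probe sets of the striatal genes were called higher under chow, Tac1 and the compressed Rgs9 probe set, against 17.9% of all rat probe sets. None was called lower (0 of 14, and 0 at an unadjusted p under 0.05), against 16.7% of all. Among those that spanned at least 0.01, 1 of 12 was called higher, against 16.1% of all such probe sets, and 0 of 12 lower, against 38.8%. Groups did not overlap, with chow above powder, for 3 of 14 (15.1% of all rat probe sets) and for 2 of the 12 that spanned at least 0.01 (14.1% of all such probe sets). Without chow 1 the counts were again 2 higher and 0 lower of 14, against 12.3% and 13.9% of all, and 2 of 12 did not overlap, against 15.1%. The Tac1 call was lost when chow 2 or any 1 of the 5 powder arrays was left out, although its difference stayed between 0.44 and 0.52 there. Because the genes were chosen with Tac1 known to stand out, its call and these counts are descriptions and not evidence for a diet effect.

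Once chow 1 was set aside, the genes differed in the order of the other 8 arrays. That order ranks chow and powder arrays together, so a difference between the diets enters it and the counts that follow. Penk and the brighter Pdyn probe set shared their order: chow 4, powder 4 and powder 3 were the 3 highest of the other 8 arrays for both. The dimmer Pdyn probe set did not share it, with chow 2 and chow 3 above powder 3. Of the 8 striatal genes whose brightest probe set spanned at least 0.01, only these 2 had that order, which was taken from them. Ppp1r1b, Drd2 and Tac1 did not follow that order, with powder 1 the highest powder array for each of them. Tac1 could not follow it, since chow 2, chow 3 and chow 4 all lay above every powder array. The same 3 arrays were the highest of the other 8 for 5 of the 7 hypothalamic markers that spanned at least 0.01, not for Hcrt and Trh, and for 4 of 8 GABA neuron and reticular markers, 7 of 19 other striatal genes, 2 of 4 opioid and tachykinin signalling genes and 0 of 9 relay markers. Among all 2414 named genes that spanned at least 0.01, 109 had that order (4.52%). The mean log2 value of the 7 hypothalamic markers was 8.97, 8.13, 8.10 and 8.98 on the chow arrays, against 7.54, 8.13, 8.79, 9.06 and 8.04 on the powder arrays. Avp, the vasopressin gene, named after its values were seen, was at 9.66 on chow 4, 9.61 on powder 3 and 10.37 on powder 4, at 9.67 on chow 1, and between 7.39 and 8.17 on the other 5 arrays. Of 10 measured hypothalamic markers, 0 were called in either direction, where 14.2% of all named genes were called higher and 18.8% lower. At an unadjusted p under 0.05 in limma, 1 of these markers was higher and 0 lower. The part of hypothalamic or of other inhibitory neurons in the Penk and Pdyn values was not tested.

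The markers of the labelled tissue ran the other way on chow 1. All 9 thalamic relay neuron markers that spanned at least 0.01, of 11 measured, had their lowest value on chow 1, against 42.2% of all such genes. Chow 1 minus the mean of the other chow arrays was between -0.66 and -0.27, with a median of -0.49 where all 2414 such genes had -0.029. Their mean log2 value was 9.67, 10.17, 10.23 and 10.01 on chow arrays 1 to 4, against 10.15 to 10.20 on the powder arrays. The next 3 genes were named after their values were seen. Tcf7l2, a transcription factor of thalamic neurons, was at 11.47 on chow 1 and between 11.86 and 12.15 elsewhere. Slc17a6, the glutamate transporter of relay neurons, was at 11.16 on chow 1 and between 11.58 and 11.74 elsewhere. Of the 11, 0 were called (1 was higher and 2 were lower at an unadjusted p under 0.05 in limma). Of all named genes, 14.2% were called higher and 18.8% lower. Without chow 1, 1 of the 11 was called higher, Rora, and 0 lower, against 9.64% and 15.5% of all named genes. The part of the tissue makeup of chow 1 in the values of the striatal genes was not tested.

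**Figure D3:**
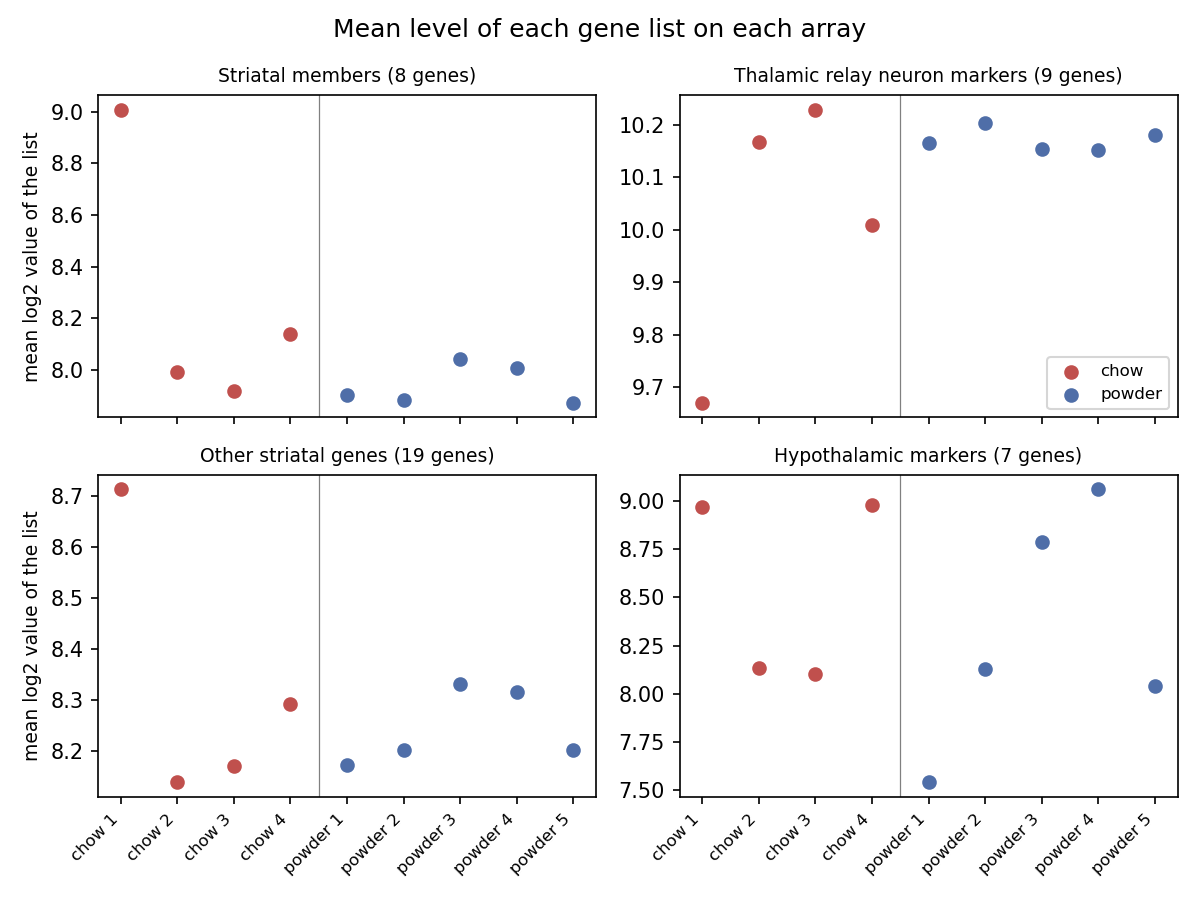
Mean log2 value (y axis, its own range in each panel) of 4 gene lists on the 4 chow arrays (red, left) and 5 powder arrays (blue, right), over the genes that spanned at least 0.01. On chow 1 the striatal genes are highest (9.01; the other arrays lie between 7.87 and 8.14) and the relay markers lowest (9.67), and the hypothalamic markers are high on chow 1, chow 4, powder 3 and powder 4. Adora2a is not in the first panel because its brighter probe set was compressed.

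Further genes of the striatum and of its signalling pathways were examined on lists that share no gene with the 9. Of 34 other striatal genes measured, such as transcription factors and receptors of medium spiny neurons, 3 were called higher and 1 lower under chow. Of all named genes, 14.2% were called higher and 18.8% lower. With other scalings the counts were 9 and 2 (quantile) and 16 and 3 (each array's median taken off). Of all 31042 rat probe sets, the same scalings called 15610 and 27206 higher and 1854 and 2141 lower. Of the 19 list genes that spanned at least 0.01, 15 were highest on chow 1 and 2 were lowest there, against 18.6% and 42.2% of all such genes. The 2 lowest, named after their values were seen, were Foxp2 and Itpr1, at -0.32 and -0.19 relative to the other chow arrays. Bcl11b and Meis2, transcription factors of striatal neurons named here after their values were seen, lay 1.89 and 1.25 above the other chow arrays on chow 1. Their differences between the diets were 0.41 ± 0.43 and 0.28 ± 0.30, and -0.065 ± 0.17 and -0.032 ± 0.15 without chow 1. The median difference of the 19 genes was 0.072, and -0.065 without chow 1, where all named genes that spanned at least 0.01 had -0.12 and -0.10.

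The 1 uncompressed gene called on that list was Strn, which encodes striatin, a calmodulin-binding scaffold of dendritic spines. It was at 9.97, 9.86, 9.85 and 10.01 under chow, against 10.23, 10.22, 10.28, 10.14 and 10.40 under powder. Every chow array lay below every powder array, and chow 1 was like the other chow arrays. Strn averaged 9.92 ± 0.082 (SD, n = 4) with chow, against 10.25 ± 0.095 (SD, n = 5) with powder, and fell by 0.33 on the log2 scale (-0.33 ± 0.059, limma adjusted p = 0.00785, and -0.35 ± 0.066, adjusted p = 0.0172, without chow 1). Of named genes that spanned at least 0.01, 40.2% were called lower and 9.03% higher under chow. The 3 higher calls were on compressed probe sets. Among them were Ido1, an enzyme of tryptophan breakdown (0.00037, adjusted p = 0.00406), and Rgs14, a G protein regulator (0.00025, adjusted p = 0.0207). Without chow 1 the list had 3 higher and 2 lower calls, against 9.64% and 15.5% of all named genes. The lower calls were Strn and Kcnip2, the latter uncompressed and named after its values were seen (-0.19 ± 0.046, limma adjusted p = 0.0309). With all arrays Kcnip2 was at -0.070 ± 0.11 (adjusted p = 0.643).

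Of 26 dopamine and cyclic AMP signalling genes measured, 4 were called higher and 2 lower, against 14.2% and 18.8% of all named genes. All 6 calls were on compressed probe sets. With other scalings the counts were 15 and 1 (quantile) and 16 and 1 (medians taken off). Of all 31042 rat probe sets, the same scalings called 15610 and 27206 higher and 1854 and 2141 lower. Ptpn5, the striatal-enriched tyrosine phosphatase, was lower by a compressed -0.0027 (limma adjusted p = 0.00745), and Drd3, the D3 receptor gene, was higher by 0.00048 (adjusted p = 0.00865). Of the 12 genes that spanned at least 0.01, 6 were highest and 4 lowest on chow 1, against 18.6% and 42.2% of all such genes. The 4 lowest, named after their values were seen, were Ppp2r5d, Ppp1r9b, Rgs7bp and Arpp21. They were at -0.38, -0.33, -0.32 and -0.32 relative to the other chow arrays. Of the 12, 0 were called with all arrays, where 9.03% of all named genes that spanned at least 0.01 were called higher and 40.2% lower. Gng7, the G protein gamma subunit that couples striatal dopamine and adenosine receptors to adenylyl cyclase and a gene named after its values were seen, was at 8.75, 7.68, 7.78 and 7.87 under chow, against 7.55, 7.61, 7.66, 7.65 and 7.66 under powder. Its excess on chow 1 over the other chow arrays, 0.97, was the largest of the list. Its groups did not overlap, and it was not called (0.39 ± 0.21, adjusted p = 0.181, and 0.15 ± 0.046, adjusted p = 0.0582, without chow 1). Without chow 1 the list had 5 higher and 2 lower calls, against 9.64% and 15.5% of all named genes. The lower calls then included an uncompressed gene, Ppp3ca, named after its values were seen (-0.21 ± 0.037, limma adjusted p = 0.0146). With all arrays Ppp3ca was at -0.15 ± 0.062 (adjusted p = 0.108).

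The opioid and tachykinin signalling list holds receptors, other peptide precursors of these families, and enzymes that process or degrade peptides, with their partners. Of its 16 measured genes, 3 were called higher and 0 lower, against 14.2% and 18.8% of all named genes. At an unadjusted p under 0.05 in limma the counts were 5 and 0. All 3 calls were on compressed probe sets. The counts were 4 and 0 with quantile scaling and 12 and 0 with medians taken off. Of all 31042 rat probe sets, the same scalings called 15610 and 27206 higher and 1854 and 2141 lower. Tacr2, a tachykinin receptor, was higher by 0.00042 (adjusted p = 0.00915), and Oprm1, the mu opioid receptor, by 0.00019 (adjusted p = 0.0179). Oprk1, the dynorphin receptor, was at 0.023 ± 0.10 (adjusted p = 0.871), and Tacr1, the substance P receptor, at 0.070 ± 0.047 (adjusted p = 0.272), both named after their values were seen.

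GABA synthesis genes, which medium spiny neurons share with other inhibitory neurons, were also high on chow 1. Of 8 GABA neuron and reticular nucleus markers, all spanning at least 0.01, 6 were highest on chow 1 and 2 were lowest there. Among all such genes, 18.6% were highest and 42.2% lowest on chow 1. The 2 markers lowest there, named after their values were seen, were Pvalb, the parvalbumin gene (-0.43 relative to the other chow arrays), and Spp1, the osteopontin gene (-0.36). Gad2 was at 9.10, 8.29, 8.29 and 8.24 under chow, against 7.69, 7.77, 7.99, 8.14 and 7.81 under powder, with no overlap. It was not called with all arrays (0.60 ± 0.20, limma adjusted p = 0.0536) and was called without chow 1 (0.39 ± 0.11, adjusted p = 0.0413). Gad1 was 0.55 and Slc32a1, the vesicular GABA transporter, 0.61 above the other chow arrays on chow 1, and neither was called (0.075 ± 0.14, adjusted p = 0.689, and 0.25 ± 0.19, adjusted p = 0.312). Gabra3, the receptor subunit of the reticular nucleus, was the 1 gene of the list called higher, with 0 lower (0.23 ± 0.066, adjusted p = 0.0338, and 0.21 ± 0.073, adjusted p = 0.0816, without chow 1). Of all named genes that spanned at least 0.01, 9.03% were called higher and 40.2% lower. The diets overlapped for Gabra3, with powder 4 at 7.201 above chow 2 at 7.191 and chow 4 at 7.197. The part of other inhibitory neurons in the Tac1 values was not tested.

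Of the remaining marker lists, the called genes that spanned at least 0.01 were 3, all lower under chow, where 40.2% of all such named genes were called lower and 9.03% higher. They were Prox1, a transcription factor of hippocampal granule cells that other regions also express (-0.35 ± 0.071, limma adjusted p = 0.0112), the oligodendrocyte gene Mobp (-0.13 ± 0.041, adjusted p = 0.0439) and the endothelial receptor Flt1 (-0.41 ± 0.12, adjusted p = 0.0363). On chow 1 minus the other chow arrays, these were at -0.29, -0.12 and -0.35. Without chow 1, Prox1 was at -0.28 ± 0.039 (adjusted p = 0.00834), Mobp at -0.10 ± 0.038 (adjusted p = 0.0911) and Flt1 at -0.33 ± 0.11 (adjusted p = 0.0749). The 3 interneuron markers of the striatum that spanned at least 0.01, of 5 measured, were all highest on chow 1, against 18.6% of all such genes. Of the 5, 0 were called (0 in either direction at an unadjusted p under 0.05 in limma). Calls higher and lower under chow, by list, were 0 and 0 of 5 habenular genes (0 and 0 at an unadjusted p under 0.05), 3 and 1 of 9 cortical and hippocampal genes, 1 and 0 of 6 choroid plexus genes and 1 and 0 of 6 astrocyte genes. They were 0 and 1 of 5 oligodendrocyte genes, 1 and 0 of 5 microglial genes and 0 and 2 of 4 endothelial genes. Of all named genes, 14.2% were called higher and 18.8% lower. The higher calls on these lists were all on compressed probe sets. The 2 habenular genes that spanned at least 0.01 averaged between 6.97 and 7.52 on the chow arrays, against 7.22 to 7.68 on the powder arrays. Of these, Chrna3 was lowest on chow 1 and Htr5b on powder 4, and the part of habenular tissue in the Tac1 values was not tested.

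**Figure D4:**
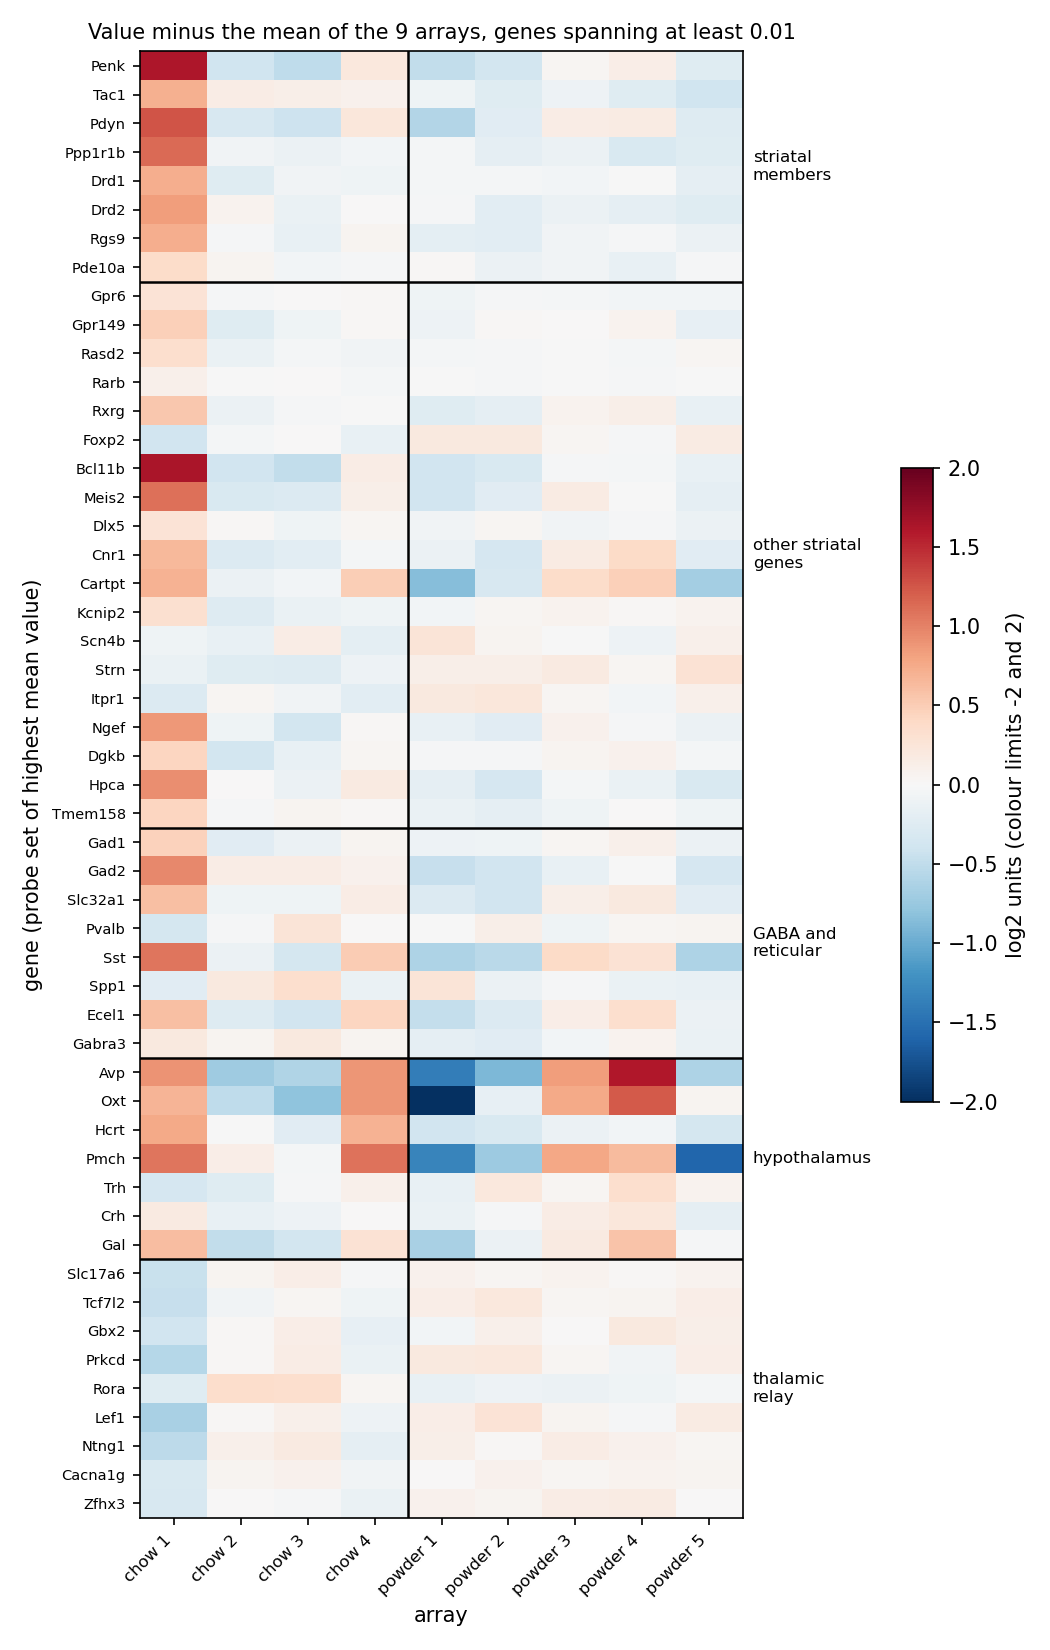
Value minus the mean of the 9 arrays (colour, log2 units, full at 2 units either way, which 1 hypothalamic gene, Oxt, passes on powder 1) for the genes of 5 lists that spanned at least 0.01 (rows, by the probe set of highest mean value) on the 4 chow and then the 5 powder arrays (columns). The chow 1 column is red for all 8 striatal genes shown and for 15 of the 19 other striatal genes, and blue for all 9 relay markers.

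The genes most like the striatal genes were sought among the 2406 other named genes that spanned at least 0.01. Likeness was Pearson's r over the 9 arrays, after each diet's mean was subtracted, with the mean pattern of the 8 striatal genes whose brightest probe set spanned at least 0.01. The 5 highest were Ankrd63, Mn1, Plk2, Hpca and Kcnv1, at 0.99, 0.99, 0.98, 0.98 and 0.98. Each was highest on chow 1, by 0.55 to 0.90 over the other chow arrays, and all points share that array. Over the other 8 arrays, Hpca, the gene of the calcium sensor hippocalcin, kept 0.94, whereas Mn1 was at 0.74, Ankrd63 at 0.65, Plk2 at 0.57 and Kcnv1 at 0.33. Hpca was at 9.37, 8.46, 8.34 and 8.63 under chow, against 8.26, 8.12, 8.40, 8.31 and 8.14 under powder.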

How the data were processed

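Single-colour arrays were analysed, 4 from chow-fed and 5 from powder-fed rats. The authors deposited log2 values for 31099 probe sets on each array. The log2 scale was read from the values, which ran from 5.37 to 14.05; as to software, background correction, normalization and any centring, details were not given in the sources used here. Array medians were 7.39 to 7.40, and nothing was rescaled. Left out were 57 control probe sets. In the platform annotation, 20826 probe sets had 1 gene symbol, 436 several and 9780 none listed, and only the first kind was named. A gene was represented by its probe set of highest mean value, except that every probe set of the 9 striatal genes was reported. Of 14217 gene symbols, 14204 matched the RefSeq table of GRCr8.

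Chow minus powder was fitted in R 4.3.3 with limma 3.58.1 (lmFit, eBayes, no covariates), over all rat probe sets and over all genes, with Benjamini-Hochberg adjustment. Groups and numbers came from the sample titles. The striatal genes, the 14 other lists and the limit of 0.01 were chosen with earlier results of these data known. Besides the striatal probe sets, the text names up to 8 called uncompressed genes and 2 called compressed ones per striatal or signalling list, up to 3 called uncompressed genes per marker list, Gad1, Gad2, Slc32a1 and the 5 genes most like the striatal pattern; others are said to have been chosen after their values were seen. The alternatives were other variance models, scalings and filters, array weights, a replicate block, each array left out and an adjusted p under 0.1. The number of arrays limits the precision.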

Additional observations from a re-analysis of the deposited data

Results flagged for a closer look

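Within the 24 groups of values examined (12 uncompressed probe sets of the striatal genes in each diet), 5 had 1 array far from the rest of its group, all 5 in the chow group with chow 1 as the high value. A gap was counted as large when its share of the group's range exceeded Dixon's critical value, which chance passes for about 1 group in 20. The share of the chow range taken by the gap above the next array was 0.961 for the dimmer Pde10a probe set, 0.946 for Ppp1r1b, 0.894 for Tac1, 0.889 for the uncompressed Adora2a probe set and 0.831 for the dimmer Pdyn probe set. The 12 probe sets were measured on the same arrays, and the genes were chosen with these values known, so the gaps are not independent of one another, that chance rate cannot be applied to their number, and they describe the same excess on chow 1 as above. In the powder group 0 were found.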

How the results depend on the processing

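The count of all rat probe sets called was 5558 higher and 5195 lower under chow, and it depended strongly on the scaling: 15610 and 1854 after quantile normalization, 27206 and 2141 with array medians subtracted, and 865 and 2019 among probe sets spanning at least 0.01. The first 2 of these scalings moved the median difference by 0.0061 and 0.0066, more than the whole span of most compressed probe sets. Subtracting medians shifted every difference alike, so it set the direction of most compressed probe sets. The quantile shift varied between probe sets: the compressed Rgs9 probe set went from 0.00037 to 0.0011, and the compressed Adora2a probe set from 0.00028 to 0.0057. The striatal probe sets called higher numbered 2, and 1 without the dimmest 0.25 of probe sets or with only those spanning at least 0.01. They numbered 3 after quantile normalization and with medians subtracted, where the compressed Adora2a probe set was also called. For the dopamine and cyclic AMP list, 4 higher and 2 lower became 15 and 1 after quantile normalization, 16 and 1 with medians subtracted, 2 and 0 among spanning probe sets, and 7 and 1 with each gene taken as the median of its probe sets. For the opioid and tachykinin list, 3 higher became 12 with medians subtracted, 0 among spanning probe sets and 5 at an adjusted p under 0.1. For the other striatal genes, 3 higher and 1 lower became 9 and 2 after quantile normalization, 16 and 3 with medians subtracted, 0 and 3 among spanning probe sets, and 3 lower at an adjusted p under 0.1.

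With the replicate number as a block, 1 probe set was called higher and 18 lower, 0 striatal probe sets were called, and the dopamine, opioid and other striatal lists had 0 calls in either direction; Tac1 was at 0.44 there. Same-numbered arrays did not deviate together (r of -0.31, 0.19, -0.34 and -0.16 for numbers 1 to 4), so the numbers were not taken to pair the samples.

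Leaving out 1 array at a time gave 3661 to 4879 higher and 3906 to 4843 lower calls over all probe sets, 1 to 2 higher striatal probe sets, 4 to 5 higher and 1 to 3 lower dopamine genes, 3 to 4 higher opioid genes, and 2 to 3 higher and 1 to 2 lower other striatal genes. Tac1 ranged between 0.34 (without chow 1) and 0.55 there, and the differences of Penk, the brighter Pdyn and Drd1 probe sets were negative only without chow 1. The causes were not tested.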
